A study of Mus musculus with 6 samples.

Results

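The genes described here are 7 aquaporin water channels and a pair of transporters that drive bicarbonate into bile, measured in the livers of a mouse model of sickle cell disease. They were chosen by symbol: Aqp1, Aqp3, Aqp4, Aqp7, Aqp8, Aqp9, Aqp11, the anion exchanger Slc4a2 and the chloride channel Cftr, 9 of the 24421 gene symbols counted. All 9 symbols were present in every count table, and 5 of them (Aqp1, Aqp8, Aqp9, Aqp11 and Slc4a2) had enough reads to test. Liver RNA was sequenced from Townes mice of 7 months, 3 libraries from SS and 3 from AS mice. In both genotypes the mouse alpha-globin locus carries human alpha-globin (Hbatm1(HBA)Tow). SS mice have the allele Hbbtm2(HBG1,HBB*)Tow, with human gamma and sickle beta-globin, whereas AS mice combine it with Hbbtm3(HBG1,HBB)Tow, which carries normal human beta-globin. The labels give no sex, litter or batch and do not say that replicates were separate animals, so p-values measure the spread between these samples.

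Bile is formed when hepatocytes and the bile duct cells (cholangiocytes) pump out solutes and water follows through aquaporins. AQP8 lies in the canalicular membrane and in intracellular membranes of hepatocytes, and AQP9, an aquaglyceroporin that also passes glycerol and urea, lies in the membrane facing the blood sinusoids. AQP1 is a water channel of cholangiocytes, endothelial cells and red cells. In cholangiocytes, CFTR releases chloride into the duct lumen and the exchanger AE2, the product of Slc4a2, trades it for bicarbonate, which makes bile alkaline and draws water.

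None of the 5 tested genes passed the test for a difference between SS and AS liver (adjusted p of 0.513 or more by edgeR's quasi-likelihood test, with adjustment over all genes after Benjamini and Hochberg). Of the 12622 genes tested, 0.967% were called at an adjusted p under 0.05, 0.911% higher and 0.0555% lower in SS. None of the 5 had an unadjusted p under 0.05 either, by edgeR, DESeq2 or limma-voom, against 12.7% of all genes by edgeR. Aqp9 had lower values in all 3 SS libraries than in any AS library, Aqp8 was low in 1 SS library, and Aqp1, Aqp11 and Slc4a2 overlapped between the genotypes. Of all genes tested, 9.04% were lower in all SS than in all AS libraries and 12.1% were higher. Aqp3, Aqp4, Aqp7 and Cftr had at most 56 reads in any library. Because liver pieces were sequenced in bulk, fewer cells of a type and less RNA per cell cannot be told apart.

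The libraries held 6670011 to 13700194 gene reads. Markers of the cell types in the pieces differed between genotypes: the summed level of 10 erythroid markers was 252 to 495 CPM (counts per mega-reads of the library, after scaling by edgeR's TMM factors) in SS and 46.4 to 64.0 CPM in AS, and that of 8 neutrophil markers was 23.7 to 84.9 CPM in SS and 3.68 to 6.56 CPM in AS. The 6 hepatocyte markers summed to 67564 to 97588 CPM in SS and 79793 to 123462 CPM in AS, and 0 of them were called by edgeR, DESeq2 or limma-voom, with 0, 1 and 0 at an unadjusted p under 0.05 in this order of tools. Erythroid Alas2 and Slc4a1, neutrophil Ngp and Mpo, the macrophage gene Gpnmb, the fibroblast genes Lum and Col1a2, and Cd24a and Prom1 were called higher in SS. AS replicates 2 and 3 were the most similar pair of libraries: the chi-square of their counts was 4.05 per gene, and 29.2 to 170 in the other pairs.

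Aqp9, on chromosome 9 (71110659 to 71168682, minus strand, mm10), is described first since it was the only tested gene of the 9 whose groups did not overlap. Groups that do not overlap were common: 9.04% of all genes tested had SS below AS and 12.1% had SS above AS. Its 250 bases upstream of each RefSeq start (GRCm38.p6, minus strand, 5′ to 3′) are shown because they hold, or lack, the letters TGTTTTC, the insulin response element described for mouse Aqp9 and Aqp7. Capitals mark that motif, which was searched on both strands.
Aqp9 upstream window chr9:71163290-71163539: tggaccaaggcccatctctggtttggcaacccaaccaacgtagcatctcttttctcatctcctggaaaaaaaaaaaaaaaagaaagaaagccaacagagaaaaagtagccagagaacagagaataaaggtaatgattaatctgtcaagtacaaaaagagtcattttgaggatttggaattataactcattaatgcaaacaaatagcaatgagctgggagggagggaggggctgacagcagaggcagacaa
Aqp9 upstream window chr9:71162634-71162883: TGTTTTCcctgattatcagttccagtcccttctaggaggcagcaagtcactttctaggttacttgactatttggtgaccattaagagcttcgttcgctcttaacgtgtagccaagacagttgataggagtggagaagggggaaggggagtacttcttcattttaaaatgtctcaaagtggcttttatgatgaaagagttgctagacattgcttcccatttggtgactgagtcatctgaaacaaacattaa
The second window has 1 match, on the gene's own strand and at its far end, and the first has none. Among 11 such windows of 8 of the genes, this was the only one with a match, and 6.33% of 32851 mouse windows of that length hold the motif. A match is a description of the letters and not evidence that a factor binds there. Bases further upstream than 250 were not searched, and whether this match is the described element was not tested.

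Aqp9 had 355, 306 and 329 CPM in SS replicates 1, 2 and 3, against 427, 444 and 424 CPM in AS replicates 1, 2 and 3. Every SS value lay under every AS value, a separation in this direction that 9.04% of all genes tested also showed. A further 12.1% were separated in the other direction. The mean was 330 ± 24.6 CPM in SS and 431 ± 10.7 CPM in AS (SD, n = 3 each), a log2 fold change of -0.39 with an SE of 0.237 (95% interval -0.91 to 0.14; adjusted p = 0.513 by edgeR). The exact two-sided permutation test gave p = 0.1, the smallest value that 3 against 3 libraries allow. On a linear scale the interval ran from 0.531-fold to 1.10-fold, which includes 1. The separation was also seen with median-ratio and upper-quartile factors but not with library totals alone, where Aqp9 had 388, 308 and 397 CPM in SS and 356, 413 and 410 CPM in AS. With library totals alone the median log2 fold change of all genes was 0.36, against 0.08 with TMM factors, and that of Aqp9 was -0.11. Beside it, the summed level of 6 periportal hepatocyte markers was 882 to 1091 CPM in SS and 1407 to 1828 CPM in AS, and of the 5 tested 4 had a lower and 1 a higher fitted value in SS (median log2 fold change -0.87). The 7 pericentral markers summed to 7260 to 9754 CPM in SS and 12423 to 13020 CPM in AS, a sum made mostly of Cyp2e1, with means of 5216 CPM in SS and 9176 CPM in AS, whereas 5 of the 7 had a higher fitted value in SS and the median log2 fold change was 0.36. By edgeR 0 genes of either zone list were called, with 3 periportal and 2 pericentral genes at an unadjusted p under 0.05; the log2 fold changes of the pericentral pair had opposite signs, -0.82 for Cyp2e1 and 0.91 for Slc1a2. DESeq2 called Cyp2e1 of the pericentral and Cyp2f2 and Hal of the periportal list and limma-voom 0. The part of either zone in the Aqp9 values was not tested.

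Aqp8, on chromosome 7 (123462291 to 123468004, plus strand), had 101, 164 and 28.7 CPM in SS replicates 1, 2 and 3, against 93.4, 144 and 135 CPM in AS replicates 1, 2 and 3. SS replicate 3 was the lowest and SS replicate 2 the highest of the 6 libraries, so the SS values spanned the AS range on both sides. The highest SS value was 5.73 times the lowest, against 1.54 times in AS. The means were 98.2 ± 67.9 CPM in SS and 124 ± 27.0 CPM in AS (SD, n = 3 each), a log2 fold change of -0.34 with an SE of 0.490 (95% interval -1.42 to 0.75; adjusted p = 0.792 by edgeR). That value was 0.092 without SS replicate 3, -0.95 without SS replicate 2 and -0.069 without both SS replicate 3 and AS replicate 1. The coefficient of variation of Aqp8 in SS, 69.2%, was above that of 92.1% of all genes tested, whereas that of Aqp9, 7.45%, was above that of 4.33%. In SS replicate 3, the hepatocyte marker Ttr (transthyretin) was also at its lowest, 2932 CPM against 6090 CPM or more elsewhere, while the hepatocyte transcription factor gene Hnf4a was at its highest, 670 CPM against 426 CPM or less. Their part in the Aqp8 value was not tested.

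**Figure D1:**
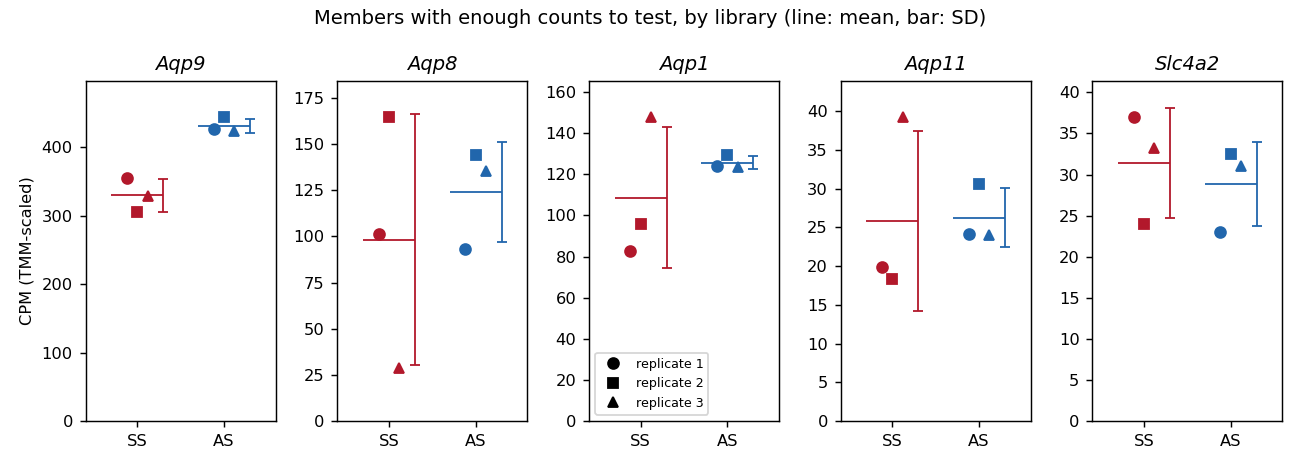
CPM (TMM-scaled, linear axis from 0) of the 5 tested genes, with SS libraries in red on the left and AS libraries in blue on the right of each panel; marker shapes are replicates, lines are means and bars are SD of 3 libraries. Aqp9 is the panel in which the groups do not overlap, and SS replicate 3 is the lowest point for Aqp8 at 28.7 CPM and the highest for Aqp1 and Aqp11.

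Aqp1, on chromosome 6 (55336432 to 55348555, plus strand), had 82.7, 95.7 and 148 CPM in SS replicates 1, 2 and 3, against 124, 130 and 124 CPM in AS replicates 1, 2 and 3. SS replicates 1 and 2 were under all AS libraries and SS replicate 3 was above them. The means were 109 ± 34.4 CPM in SS and 126 ± 3.35 CPM in AS (SD, n = 3 each), a log2 fold change of -0.21 with an SE of 0.269 (95% interval -0.80 to 0.38; adjusted p = 0.764 by edgeR). It was -0.50 without SS replicate 3, and 0.089 with library totals alone. The sums of 10 erythroid markers, from cells in which AQP1 is abundant, were 252, 456 and 495 CPM in SS replicates 1, 2 and 3, against 46.4, 60.2 and 64.0 CPM in AS replicates 1, 2 and 3. Endothelial cells also carry AQP1, and the endothelial adhesion gene Pecam1 had 19.4, 17.0 and 38.3 CPM in SS replicates 1, 2 and 3, and 24.3, 25.8 and 20.6 CPM in AS replicates 1, 2 and 3. Of the 10 endothelial markers, 6 were highest in SS replicate 3, as Aqp1 was, and 4 in other libraries, and Egfl7 was lowest in SS replicate 3 (30.0 CPM). By edgeR and limma-voom 0 of the 10 were called, with 2 at an unadjusted p under 0.05, and DESeq2 called Lyve1 and Vwf. The sum of the 10 was 277 to 483 CPM in SS and 308 to 355 CPM in AS. What part erythroid or endothelial cells had in the level of Aqp1 was not tested.

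Aqp11 encodes an aquaporin of the endoplasmic reticulum and lies on chromosome 7 (97724006 to 97738289, minus strand). It had 19.9, 18.3 and 39.2 CPM in SS replicates 1, 2 and 3, against 24.2, 30.6 and 24.0 CPM in AS replicates 1, 2 and 3. As for Aqp1, SS replicate 3 was above all AS libraries and the other SS libraries were below them. The log2 fold change was -0.021 with an SE of 0.330 (95% interval -0.75 to 0.71; adjusted p = 0.987 by edgeR). Its sign was not stable: it was -0.47 without SS replicate 3, 0.17 without SS replicate 2 and 0.29 with library totals alone.

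Slc4a2, which encodes the chloride-bicarbonate exchanger AE2, lies on chromosome 5 (24423837 to 24440950, plus strand). It had 36.9, 24.0 and 33.3 CPM in SS replicates 1, 2 and 3, against 23.0, 32.5 and 31.0 CPM in AS replicates 1, 2 and 3. The groups overlapped, at 31.4 ± 6.67 CPM in SS and 28.9 ± 5.10 CPM in AS (SD, n = 3 each). Its log2 fold change was 0.12 with an SE of 0.272 (95% interval -0.48 to 0.72; adjusted p = 0.873 by edgeR), and it was -0.014 without SS replicate 1 and -0.028 without AS replicate 1. Slc4a2 shares 1141 exon bases with Fastk, a gene on the opposite strand, so its count is uncertain if counting did not use strand, which is not given in the sources used here.

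**Figure D2:**
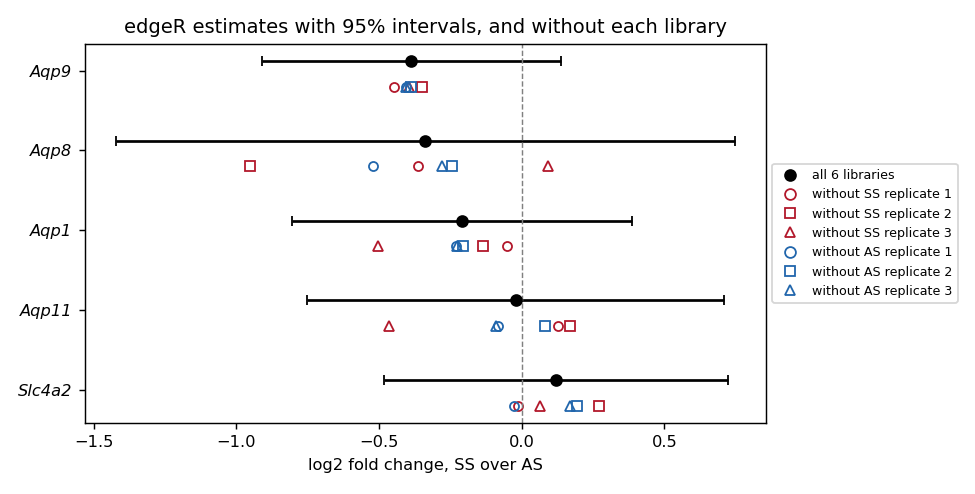
Log2 fold change of SS over AS for the 5 tested genes, where black points and bars are edgeR estimates from all 6 libraries with 95% intervals, and open symbols are estimates with 1 library left out. All 5 intervals include 0, and the estimate for Aqp8 moves from -0.34 to 0.092 without SS replicate 3.

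Cftr, the chloride channel of the duct epithelium, on chromosome 6 (18170687 to 18322768, plus strand), was near the limit of detection. It had 5, 0 and 1 reads in SS replicates 1, 2 and 3, against 2, 0 and 0 reads in AS replicates 1, 2 and 3. A count of 0 allows up to 0.218 CPM in SS replicate 2, 0.483 CPM in AS replicate 2 and 0.245 CPM in AS replicate 3, with 3 counts as the limit and counting error only. Other defining duct genes were also scarce: the duct keratin gene Krt19 averaged 1.91 ± 1.37 CPM in SS and 1.52 ± 0.639 CPM in AS (SD, n = 3 each), and the secretin receptor gene Sctr had 2 reads over the SS and 1 over the AS libraries. Of the 10 duct markers 7 were tested and 2 rose, the surface protein genes Cd24a (log2 fold change 3.03, edgeR adjusted p = 0.00193) and Prom1 (3.56, edgeR adjusted p = 0.0103), and the sum of the list was 213 to 331 CPM in SS and 106 to 126 CPM in AS. What part duct cells had in the counts of Slc4a2 and Cftr was not tested. Cftr shares 129 exon bases with the antisense gene Gm15592, and without strand their reads cannot be told apart. At this depth no difference in Cftr was detectable.

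Aqp4, a water channel best known from brain, muscle and stomach, lies on chromosome 18 (15389496 to 15410982, minus strand). It had 56, 1 and 9 reads in SS replicates 1, 2 and 3, against 9, 0 and 2 reads in AS replicates 1, 2 and 3. SS replicate 1 held 56 of the 66 SS reads, and SS replicate 2 lay under AS replicates 1 and 3, so the groups overlapped (exact two-sided permutation p = 0.6, smallest possible 0.1). Aqp3, an aquaglyceroporin of epithelia on chromosome 4 (41092722 to 41098183, minus strand), had 9 reads in SS replicate 1 and 0 in each of the other libraries. Aqp7, the glycerol channel of fat cells, also on chromosome 4 (41033074 to 41048139, minus strand), had 5, 7 and 2 reads in SS replicates 1, 2 and 3, against 0, 2 and 0 reads in AS replicates 1, 2 and 3. AS replicate 2 and SS replicate 3 both had 2 reads, and the exact two-sided permutation p on log2(CPM + 0.5) was 0.2. The fat cell genes Plin1 and Lep were at 0 in all 6 libraries and Adipoq had 3 reads over SS and 1 over AS, while the 5 fat cell markers, which include the more widely expressed Cidec and Fabp4, summed to 35.1 to 57.8 CPM in SS and 27.9 to 32.5 CPM in AS. Their part in the Aqp7 reads was not tested.

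With no filter on low counts, edgeR gave adjusted p-values of 0.488 for Aqp3, 0.524 for Aqp4, 0.680 for Aqp7 and 0.767 for Cftr.

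SS replicate 1 stood apart in reads outside annotated genes and in genes that liver is not known to use. Reads in no annotated gene made up 53.9% of its records, against 40.7% to 43.8% in the other 5 libraries. It also had reads in 86 olfactory receptor genes, against 34 and 27 in SS replicates 2 and 3 and 57, 8 and 20 in AS replicates 1, 2 and 3. This count was chosen after the Aqp4 reads were seen. The 2 libraries with the most olfactory receptor genes, SS replicate 1 and AS replicate 1, were also those with the most Cftr reads of their genotype. The part of such reads in the counts of Aqp3, Aqp4 and Cftr was not tested.

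**Figure D3:**
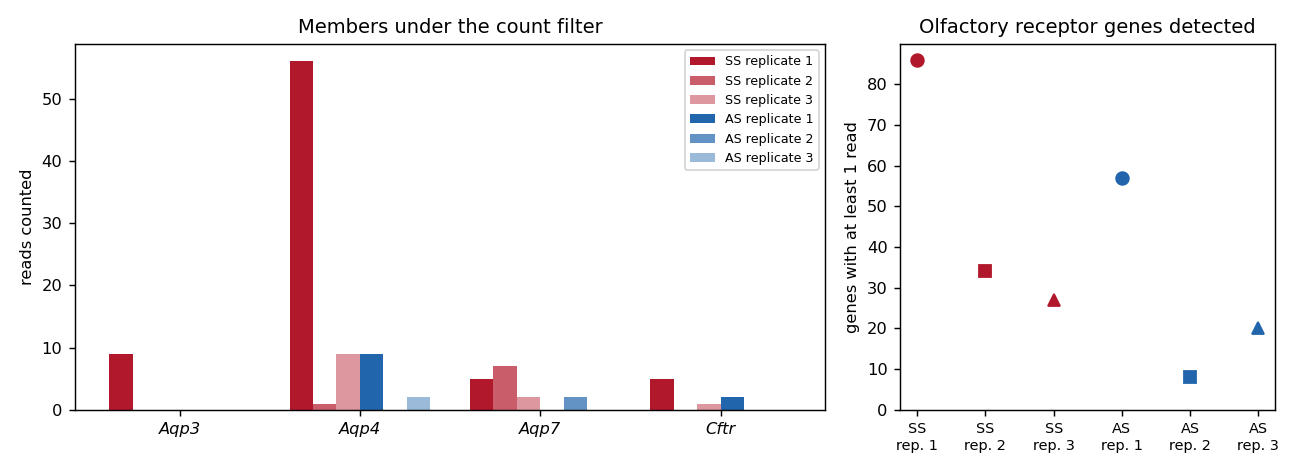
Left, reads counted for the 4 genes under the count filter in each library, SS in red and AS in blue; right, number of olfactory receptor genes with at least 1 read in the same libraries. SS replicate 1 holds 56 Aqp4 reads, all 9 Aqp3 reads and reads in 86 olfactory receptor genes, the highest of the 6 libraries in each case.

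Levels of different genes were compared as CPM per kb of exon, with the union of exons in GENCODE M21 as the length. In SS the levels were 79.6 ± 5.93 for Aqp9, 62.1 ± 43.0 for Aqp8, 41.4 ± 13.1 for Aqp1, 3.77 ± 0.801 for Slc4a2 and 2.74 ± 1.24 for Aqp11 (CPM per kb, SD, n = 3). In AS they were 104 ± 2.57, 78.6 ± 17.1, 47.9 ± 1.28, 3.47 ± 0.613 and 2.79 ± 0.401 CPM per kb in the same order of genes. Aqp4, Aqp3, Aqp7 and Cftr averaged under 1 CPM per kb in both genotypes. In AS the libraries of Aqp9 (102 to 107 CPM per kb), Aqp8 (59.1 to 91.0) and Aqp1 (47.1 to 49.4) did not overlap, while those of Slc4a2 and Aqp11 did. In SS the range of Aqp8 (18.2 to 104 CPM per kb) took in those of both Aqp9 (73.8 to 85.7) and Aqp1 (31.5 to 56.2). The level of Aqp11 depends on a length of 9418 bases, which is long for an aquaporin and lowers its value.

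Summed over the 7 aquaporins, the level was 187 ± 29.2 CPM per kb in SS and 233 ± 19.8 CPM per kb in AS (SD, n = 3 each), a ratio of 0.800 that did not exceed the spread (exact two-sided permutation p = 0.2, smallest possible 0.1). SS replicates 1, 2 and 3 had 186, 216 and 158 CPM per kb, and AS replicates 1, 2 and 3 had 212, 251 and 238. Aqp9 supplied 46.2%, 34.1% and 50.2% of the sum in SS replicates 1, 2 and 3, and 48.6%, 42.7% and 43.1% in AS replicates 1, 2 and 3. It was the leading aquaporin in every library but SS replicate 2, where Aqp8 led with 48.1%. Aqp8 supplied 34.6% and 11.5% in SS replicates 1 and 3, and 27.9%, 36.3% and 36.0% in AS replicates 1, 2 and 3. Aqp1 supplied 17.0%, 16.8% and 35.6% in SS replicates 1, 2 and 3, and 22.3%, 19.7% and 19.8% in AS replicates 1, 2 and 3, so that it stood above Aqp8 only in SS replicate 3. Each of these shares overlapped between the genotypes, with exact two-sided permutation p-values of 0.9 for Aqp9, 0.8 for Aqp8, 1 for Aqp1 and 0.9 for Aqp11. The same limit of 0.1 holds for them.

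**Figure D4:**
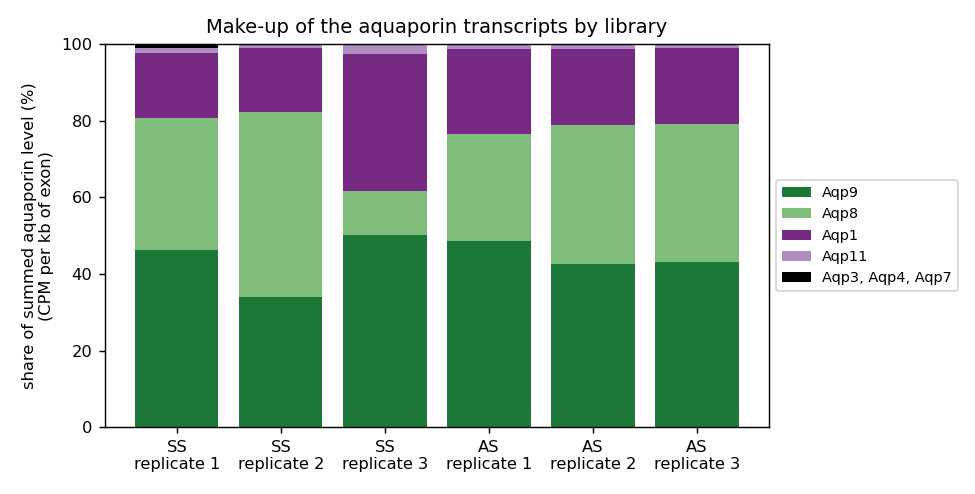
Share of each aquaporin in the summed aquaporin level (percent of CPM per kb of exon) in each library, SS on the left and AS on the right. In SS replicate 3, Aqp8 takes 11.5% and Aqp1 35.6%, while the AS libraries lie between 27.9% and 36.3% for Aqp8 and between 19.7% and 22.3% for Aqp1.

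The genes whose profile over the 6 libraries was most like that of the 3 leading aquaporins were sought among 7994 genes of at least 10 CPM, by Pearson's r of log2 CPM. These are descriptions over 6 libraries that share the same counts and scaling, with no test. For Aqp9 they were the amylase gene Amy1, the ubiquitin ligase gene Rfwd2 and the carboxylesterase gene Ces1d (r of 0.990, 0.989 and 0.989), each lower in all SS than in all AS libraries and none of them called (edgeR adjusted p = 0.193, 0.525 and 0.423). For Aqp8 they were Spag7, Frg1 and the thioesterase gene Acot13 (r of 0.990, 0.988 and 0.988), and Acot13 had 116, 135 and 49.9 CPM in SS replicates 1, 2 and 3, against 96.2, 126 and 134 CPM in AS replicates 1, 2 and 3. For Aqp1 they were Ascc3, the glycosyltransferase gene Galnt4 and Prkacb, which encodes a catalytic subunit of protein kinase A (r of 0.997, 0.989 and 0.988). Each of these was highest in SS replicate 3.

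Other genes of bicarbonate and water secretion were read from a list of 43, of which 27 were tested. In SS liver 2 of these rose, 0 fell and 25 did not pass the test, with a median log2 fold change of 0.32 against 0.08 over all genes tested and 0.911% of all genes called higher. Those that rose were Slc4a1, the red cell anion exchanger band 3, and Car2, a cytosolic carbonic anhydrase of duct cells, hepatocytes and red cells. Slc4a1 had 26.1, 67.7 and 127 CPM in SS replicates 1, 2 and 3, against 2.30, 3.38 and 3.27 CPM in AS replicates 1, 2 and 3, a log2 fold change of 4.62 (SE 0.549, edgeR adjusted p = 0.00405). Car2 had 51.7, 59.1 and 46.8 CPM in SS replicates 1, 2 and 3, against 21.1, 21.6 and 19.1 CPM in AS replicates 1, 2 and 3, a log2 fold change of 1.35 (SE 0.238, edgeR adjusted p = 0.0323). Neither gene overlapped between genotypes, and both were higher in SS, as was the summed level of the erythroid markers, of which Slc4a1 is itself one. Of the 9 erythroid markers tested, 8 had a higher fitted value in SS and 4 were called higher by edgeR. The other 1, Klf1, had a lower fitted value (log2 fold change -0.86, not called). Within SS, Car2 was lowest in replicate 3, where the erythroid sum was highest, and the summed neutrophil markers also stood higher in SS than in AS. The part of any of these cell types in Car2 was not tested. A non-overlap with SS above AS was seen in 12.1% of all genes tested. The call of Slc4a1 ended without AS replicate 1 (edgeR adjusted p = 0.0549), and that of Car2 ended without any 1 library other than SS replicate 3 (edgeR adjusted p of 0.0726 to 0.213). By limma-voom neither passed (adjusted p = 0.0597 for Slc4a1 and 0.0574 for Car2).

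By role, 9 of 10 tested bicarbonate and chloride transporters and 2 of 3 carbonic anhydrases did not pass, nor did any of 11 receptors and signalling genes or of 3 CFTR scaffold genes. Aqp2, Aqp5, Aqp6 and Aqp12 had 0 reads in all 6 libraries, as did the bile acid receptor gene Gpbar1 and the sodium-proton exchanger gene Slc9a3. Slc4a4, the sodium-bicarbonate cotransporter, had 55.7, 82.0 and 108 CPM in SS replicates 1, 2 and 3, against 142, 60.7 and 64.1 CPM in AS replicates 1, 2 and 3 (log2 fold change -0.12, SE 0.369, edgeR adjusted p = 0.911). A pair near the threshold was picked out after its values were seen: Ano6, a calcium-activated scramblase and channel, and Car5a, the mitochondrial carbonic anhydrase of hepatocytes. Ano6 had 55.6, 35.6 and 29.9 CPM in SS replicates 1, 2 and 3, against 17.7, 13.9 and 14.3 CPM in AS replicates 1, 2 and 3 (log2 fold change 1.39 with an SE of 0.301, adjusted p = 0.0656 by edgeR and 0.00517 by DESeq2). Car5a had 46.7, 51.6 and 68.7 CPM in SS replicates 1, 2 and 3, against 111, 130 and 131 CPM in AS replicates 1, 2 and 3 (log2 fold change -1.16 with an SE of 0.245, adjusted p = 0.0619 by edgeR and 0.000749 by DESeq2). Over the alternatives, adjusted p ran from 0.00364 to 0.320 for Ano6 and from 0.000749 to 0.274 for Car5a.

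**Figure D5:**
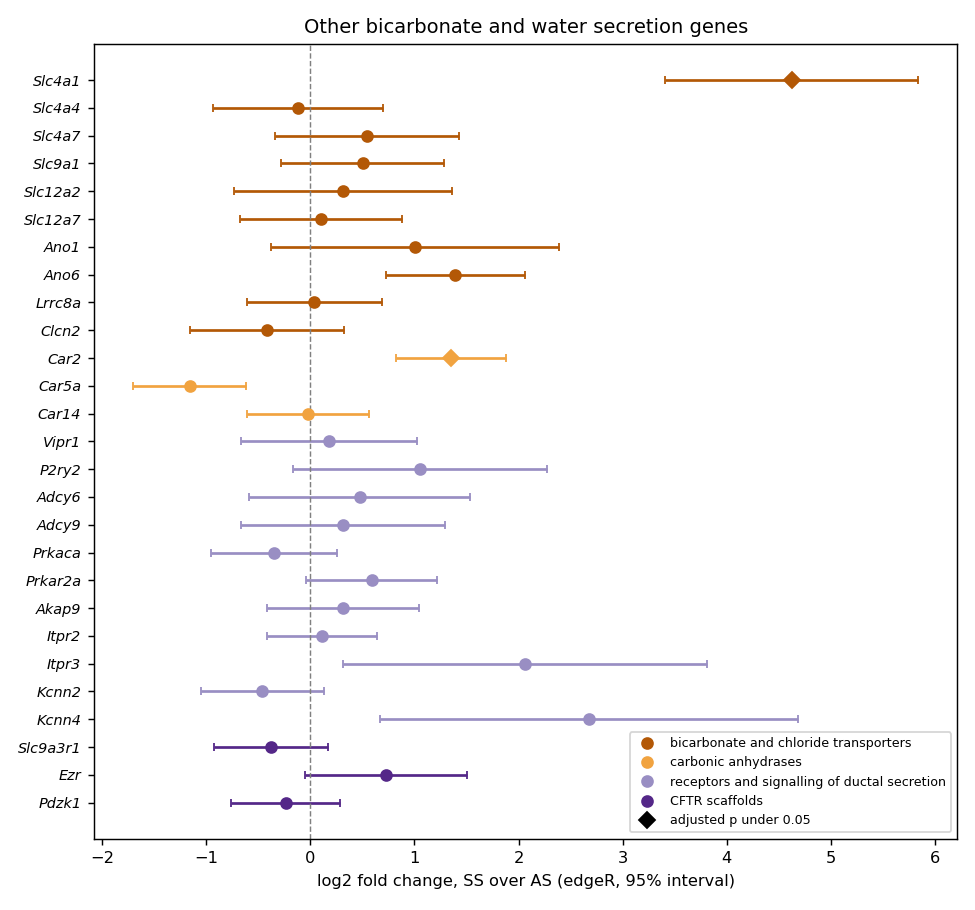
Log2 fold change of SS over AS with 95% intervals (edgeR, 6 libraries) for the 27 tested genes of the bicarbonate and water secretion list, coloured by role. Diamonds mark the 2 genes with an adjusted p under 0.05, Slc4a1 at 4.62 and Car2 at 1.35.

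The aquaglyceroporin AQP9 feeds glycerol into hepatocyte metabolism, so 12 genes of glycerol handling were read beside it. Of 11 tested, 0 passed in either direction by edgeR, DESeq2 or limma-voom, with 1 at an unadjusted p under 0.05 by each tool and a median log2 fold change of -0.23 against 0.08 over all genes tested. Among those with the lowest p were Mgll, which splits monoacylglycerol (log2 fold change -0.41, SE 0.310), Gpd1, which oxidises glycerol 3-phosphate (-0.39, SE 0.299), Gpd1l (0.43, SE 0.338) and Pck1, the gluconeogenic carboxykinase (-0.53, SE 0.418). Pck1 had 1639, 1614 and 2815 CPM in SS replicates 1, 2 and 3, against 1286, 3743 and 3731 CPM in AS replicates 1, 2 and 3, and AS replicate 1 was the lowest of all 6.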

How the data were processed

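Liver RNA in 3 SS and 3 AS libraries was analysed from the raw read counts per gene that the authors deposited, 1 table per sample. The submitters' processing notes name HISAT2, HTSeq and the build mm10; versions, annotation, strand setting and filters are not given in the sources used here. Each table ends with 5 counter lines, which stayed out of library sizes and tests. Genes were filtered with filterByExpr (minimum count 10, minimum total 15), leaving 12622, and the contrast SS over AS was fitted in edgeR 4.0.16 under R 4.3.3 (TMM, robust quasi-likelihood F-test, two-sided, Benjamini-Hochberg over all genes tested, called at 0.05). CPM used the same factors. SE was derived from F. The procedure was tested on simulated counts. Single values had exact permutation tests over 20 splits of log2(CPM + 0.5), or of shares and sums. Reads carry no molecular identifiers, so limits for counts of 0 cover counting error only.

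Coordinates and exon lengths came from GENCODE M21 (GRCm38, the same build as mm10), and promoter windows from RefSeq (GRCm38.p6), found for 8 of 9 members; that of Aqp4 was not used here. Members, gene lists, tests and alternatives were chosen with earlier results of these data known. Genes named are all 9 members, the called genes of each list (up to 10 for secretion and glycerol, up to 4 for cell types) or otherwise the 5 with the lowest p, marker genes at 0, and the 3 nearest profiles of Aqp1, Aqp8 and Aqp9; others were picked after their values were seen. Some genes that this rule would name are not reported here. Epb42, listed as an erythroid marker, was not analysed here. Alternatives were DESeq2 1.42.0, limma-voom (limma 3.58.1), other scaling factors, filtering at 1 CPM in 3 libraries or not at all, a replicate block, a fit that was not robust, summing AS replicates 2 and 3, and leaving out each library in turn or both SS replicate 3 and AS replicate 1.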

Additional observations from a re-analysis of the deposited data

How the results depend on the processing

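None of the 9 members was called under any of the 17 alternatives, and Aqp9 kept a negative log2 fold change in all 17 (-0.45 to -0.11, adjusted p 0.155 to 0.818). Aqp3, Aqp4, Aqp7 and Cftr were under the filter in the main fit, and a gene that is not tested cannot be called. Their estimates were read only with no filter on low counts. The sign turned for Aqp1 with library totals alone (0.089). It turned for Aqp11 with library totals alone (0.29) and with AS replicates 2 and 3 summed (0.025), and for Slc4a2 without both SS replicate 3 and AS replicate 1 (-0.070). Leaving out each library in turn gave -0.50 to -0.051 for Aqp1, -0.95 to 0.092 for Aqp8, -0.47 to 0.17 for Aqp11 and -0.028 to 0.27 for Slc4a2. The same step moved the difference in aquaporin share, SS minus AS, to -3.68 to 5.69 percentage points for Aqp1, -10.4 to 7.93 for Aqp8, -4.63 to 3.40 for Aqp9 and -0.174 to 0.695 for Aqp11. Over all genes 122 were called, and 217 with no filter, 453 by DESeq2, 31 by limma-voom, 31 with AS replicates 2 and 3 summed, 662 without both SS replicate 3 and AS replicate 1, and 22 to 99 with 1 library left out (22 without AS replicate 1, 26 without AS replicate 2 or SS replicate 2, and 38 without AS replicate 3). On the secretion list 2 were called, and 4, 4, 0, 1 and 6 in the same order of settings, and 0 to 4 with 1 library left out. Where a setting changed a count or sign, the cause was not tested.

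Deviations from the group mean correlated at 0.0558, -0.139 and 0.217 between SS and AS replicates 1, 2 and 3 of the same number. SS replicates 1 and 3 correlated best with the AS library of their own number, and SS replicate 2 with AS replicate 1 (0.270). Deviations within 3 libraries are tied to each other, so these values cannot tell whether the numbers pair the samples. With the replicate number as a block, 460 genes and 5 of the secretion list were called, and 0 members. With 3 libraries per genotype the 95% intervals of all 5 tested members hold changes of 1.64-fold or more in 1 direction at least, so the data do not show that these genes were the same in SS and AS.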

Other observations

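Among the other secretion genes with reads but too few to test, Slc26a3, Adcy8, Car4 and Car12 had most of their reads in SS replicate 1. Aqp4 and Aqp3 did so too. Slc4a3, Slc4a5, Slc4a10, Slc26a6, Sstr2 and Sctr did not. Slc4a10 was highest in SS replicate 2 (0.943 CPM) and Sstr2 in SS replicate 3 (0.939 CPM). How common this pattern was among all genes with few reads was not tested. Slc26a3, an intestinal chloride-bicarbonate exchanger, had 3.17, 0.0725 and 0 CPM in SS replicates 1, 2 and 3, against 0.230, 0 and 0 CPM in AS replicates 1, 2 and 3. Adcy8, an adenylyl cyclase, had 2.64, 0 and 0.391 CPM in SS replicates 1, 2 and 3, against 0.345, 0 and 0 CPM in AS replicates 1, 2 and 3. Car4, a membrane-bound carbonic anhydrase, had 9 reads over the SS and 0 over the AS libraries, with 1.06 CPM in SS replicate 1. Slc26a3, Adcy8 and Car4 were picked after their values were seen.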
